A study of Xenopus laevis with 2 samples.

Results

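Bone morphogenetic proteins (BMPs) are secreted ligands of the TGF-beta superfamily that set ventral and posterior fates in the frog embryo. They bind paired type I and type II serine/threonine kinase receptors, which phosphorylate Smad proteins that enter the nucleus with Smad4 and switch on target genes. Several targets feed back on the pathway: Bambi is a pseudoreceptor without a kinase domain, and the inhibitory Smads block the receptors and the activating Smads. The Id proteins, encoded by other targets, hold back bHLH transcription factors. In Xenopus these genes share the expression domain of bmp4 and are known as the BMP4 synexpression group. The genes described here were chosen by symbol: all probe sets whose platform gene symbol, without the suffix .L or .S, was bmp2, bmp4, bmp7, bambi, smad6, smad7, id2, id3, szl or chrd.1. They came to 9 measured genes of 6520, homeologs counted together, and to 22 of 15491 probe sets, of which 14 belong to the synexpression group (bmp4, bambi, smad6, smad7, id2 and id3).

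Xenopus laevis is allotetraploid, and .L and .S mark the copies (homeologs) of a gene on its long and short subgenomes. Of the 22 probe sets 18 named a single gene and 4 named both homeologs of a gene. A probe set under the exact symbol bmp7 was not met, so 9 of the 10 symbols were measured, while bmp7.1 and bmp7.2 are given below with the other ligands. Neither smad6.S nor smad7.S was read, chrd.1 was read only as .S, and bmp4.L only through a probe set that it shares with bmp4.S.

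The RNA came from dorsal posterior pieces of neurula embryos at stage 18, hybridised to an Affymetrix Xenopus laevis array. One group was labelled wildtype, and the sources used here do not say whether its embryos were injected. The other was labelled depleted of Derriere, a TGF-beta ligand encoded by gdf3, by 2 ng of antisense morpholino placed with GFP into the dorsal side of embryos of 4 cells. Each group had 1 array and no replicate, so there is no p-value and no error between embryos for any value below, and precision is limited by the number of arrays.

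The labels could not be checked by the targeted transcript. The derriere probe set, gdf3.S, read 552 on the array labelled wildtype. On the array labelled Derriere depleted it read 2318.6, which is 4.17-fold higher, and a control probe set for EGFP read 72.7 on the former and 10 on the latter. A morpholino need not lower its target's transcript. Both readings nevertheless run against what the labels alone would lead one to look for, and every direction below turns around if the labels were exchanged. The EGFP readings were dim, however. Both were under 75, the mean signal asked of kept probe sets below, and that of 10 was under the floor of 19.7. The pieces carried the markers of posterior and paraxial mesoderm: all 7 probe sets for tbxt, tbx6, msgn1, cdx4, myod1 and myf5 passed the signal filter, with a summed signal of 7340.1 on the wildtype-labelled and 7813.6 on the depleted-labelled array. Epidermal markers were present too, with 10 of 10 probe sets above the filter. In such mixed tissue a lower signal from fewer cells of a type and one from less RNA per cell cannot be told apart.

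Signals are the deposited MAS5 intensities, on a linear scale in arbitrary units. A log2 ratio is the depleted-labelled over the wildtype-labelled array, with signals under the floor of 19.7 raised to it and the median of the kept probe sets set to 0. Probe sets with a mean signal of at least 75 were kept, 7747 in all, and 11 of the 22 passed. A probe set counts as higher or lower when it differed by at least 1.5-fold, a size of 0.58 on the log2 scale. As a measure of technical error, the log2 ratios of kept probe sets for the same gene varied with a pooled SD of 0.23 over 580 genes. Many of the genes described here lie between the 25th and 75th percentile of signal. Over all probe sets in that range, kept or not, the SD was 0.35 over 440 genes. It does not cover variation among embryos, nor error that the probe sets of a gene share because they were read on the same arrays.

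Bambi was higher on the depleted-labelled array in every one of its readings, and no kept probe set of the other genes was past 1.5-fold. Of the 11 kept probe sets 3 were at least 1.5-fold higher, all of them for bambi, and 0 were lower. Over all 7747 kept probe sets 2.52% were at least 1.5-fold higher and 3.38% at least 1.5-fold lower. The remaining 8 kept probe sets, for bmp4, smad7, id2, id3 and chrd.1, ranged from -0.49 to 0.43 on the log2 scale. The members' log2 ratios had a median of 0.21, beside 0.00 over all kept probe sets.

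**Figure D1:**
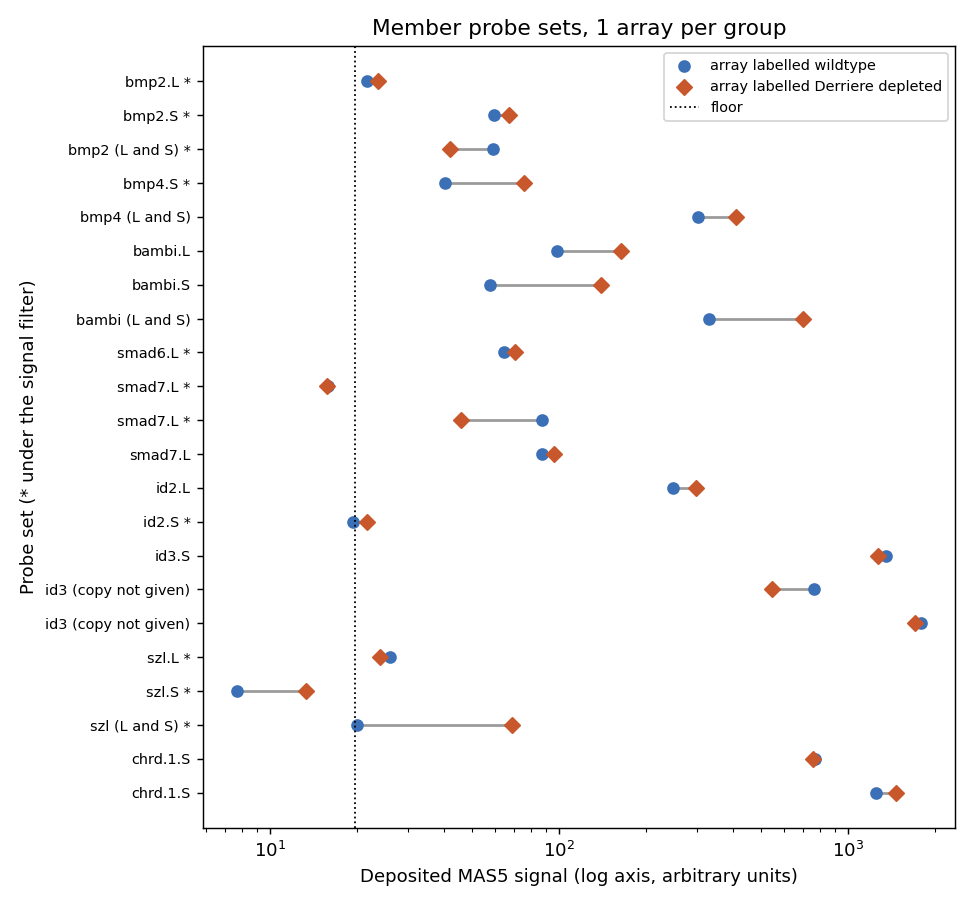
Deposited MAS5 signal (log axis, arbitrary units) of the 22 probe sets on the array labelled wildtype (blue circles) and the array labelled Derriere depleted (orange diamonds), with grey lines joining the readings of a probe set. Asterisks mark the 11 probe sets under the signal filter and the dotted line is the floor of 19.7. All 3 bambi probe sets lie to the right on the depleted-labelled array, whereas the id3 readings lie slightly to the left.

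The ligand gene bmp4 read higher on the depleted-labelled array in both of its probe sets, by different amounts. The probe set shared by both homeologs went from 302.9 on the wildtype-labelled to 409.8 on the depleted-labelled array, a log2 ratio of 0.43 or 1.34-fold, which is under the 1.5-fold limit. The probe set for bmp4.S alone went from 40.3 to 75.4, a log2 ratio of 0.89 or 1.86-fold. It lay under the signal filter, with a mean of 57.9 (44.9th percentile of all probe sets). The ratios differed by 0.47, and the shared, brighter reading had the smaller one.

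The related ligand bmp2, which acts through the same receptors, was dim in all 3 of its readings and none was kept. Signals for bmp2.L were 21.7 and 23.7, close to the floor. Those for bmp2.S were 59.7 and 67, and the one shared by both homeologs read 58.8 and 42. Their log2 ratios of 0.12, 0.16 and -0.49 had no common direction, and none was past 1.5-fold.

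Bambi, which takes the place of a type I receptor and dampens signalling, had the highest ratios among the kept probe sets of these genes. The bambi.L probe set read 98.3 on the wildtype-labelled and 163.1 on the depleted-labelled array, a log2 ratio of 0.72 or 1.65-fold. That of bambi.S read 57.6 and 139.3, a log2 ratio of 1.27 or 2.40-fold. The brightest, shared by both homeologs, read 329.6 and 697.2, a log2 ratio of 1.07 or 2.1-fold, which lies between those of the single copies. The readings for .L and .S differed by 0.54 on the log2 scale, so the size for each copy is uncertain, while the direction was the same in all 3. Bambi.L and bambi.S lay in the dimmest of 4 equal bins of kept probe sets by signal, where 3.77% were at least 1.5-fold higher and 5.99% at least 1.5-fold lower. The shared probe set lay in the third bin, where 1.76% were higher and 2.58% lower by that size.

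The inhibitory Smads did not show a common shift. The only probe set for smad6.L, whose product competes with Smad4 for Smad1, read 64.3 and 70.4, a log2 ratio of 0.12 under the signal filter. Smad7, which blocks both BMP and activin receptors, was read by 3 probe sets for smad7.L. One of them was kept and read 87 and 96.3, a log2 ratio of 0.14. A second, which the annotation ties to the same sequence record, read 87.5 on the wildtype-labelled and 45.8 on the depleted-labelled array, a log2 ratio of -0.94 or 1.92-fold lower. The third read 15.8 and 15.7, under the floor on both arrays. The first 2 thus started from nearly equal wildtype-labelled signals and differed by 1.08 on the log2 scale. No direction for smad7.L can be read from them.

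None of the id2 and id3 readings differed by 1.5-fold. The signal of id3.S was 1349.9 on the wildtype-labelled and 1269.3 on the depleted-labelled array, a log2 ratio of -0.10. A probe set named id3 without a copy read 1790.4 and 1706.9, a log2 ratio of -0.08. Another with that name, of the Affymetrix type that can cross-hybridise with other transcripts, read 763.2 and 546.2, a log2 ratio of -0.49 or 1.41-fold lower. All 3 readings for id3 were thus lower on the depleted-labelled array, and none reached 1.5-fold. Those at -0.10 and -0.08 were closer to 0 than the pooled SD of 0.23 between probe sets of a gene. The one at -0.49 is of the cross-hybridising type, so no direction for id3 is settled.

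Signals for id2.L were 247.3 and 298.1, a log2 ratio of 0.26. That for id2.S read 19.3 and 21.7, at the floor, and gives no comparison between the homeologs. The 4 kept Id probe sets, for id2 and id3, had a median log2 ratio of -0.09.

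As a group, the kept synexpression genes did not shift together by a like amount. The 7 kept probe sets that name 1 gene had a median log2 ratio of 0.14, with 4 above 0 and 3 below. All 3 below 0 were for id3, while the kept readings of bambi, smad7, id2 and bmp4 were above 0. Taken over gene symbols, with homeologs apart and each symbol counted once, the median was 0.20. There id3 without a copy was counted apart from id3.S, and bmp4 and smad6 had no value. With the probe sets shared by both homeologs added, 6 of 9 were above 0, the median was 0.26 and the SD was 0.58, beside an SD of 0.33 over all kept probe sets. Without bambi, left out after its values were seen, the remaining 6 ranged from -0.49 to 0.43 with 3 on each side of 0, a median of 0.03 and an SD of 0.32. With the stricter signal filter, at the 75th percentile, the median of the probe sets that name 1 gene rested on 3 probe sets, all for id3, and was -0.10. The kept readings of the group thus did not share a size, and smad6 had no kept reading among them. Those of smad7 at 0.14 and of id3 at -0.10 and -0.08 lay within 0.23 of 0. That of id2.L at 0.26 lay within 0.35, the SD between the 25th and 75th percentile of signal. A common direction was thus not settled.

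**Figure D2:**
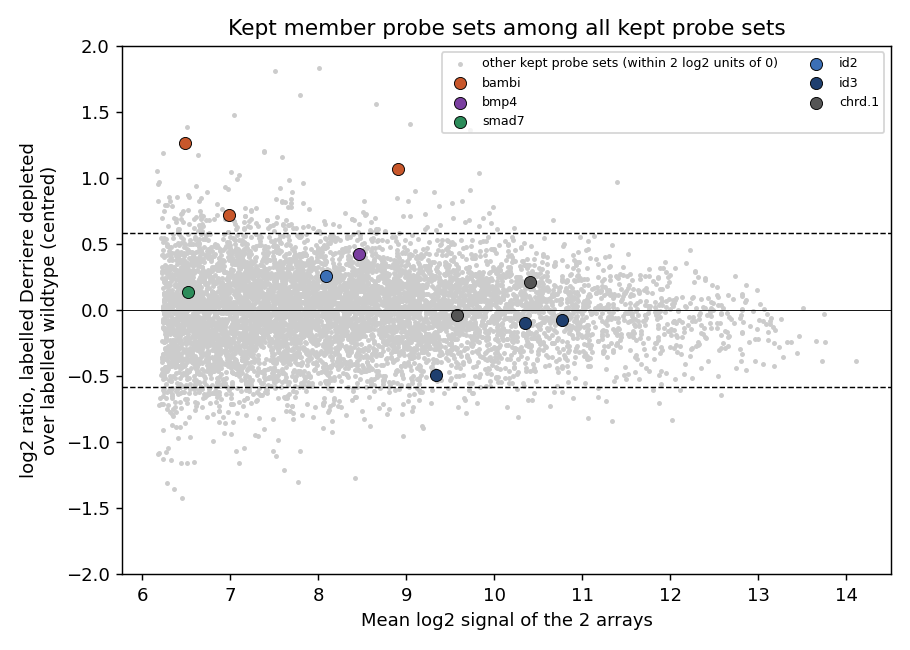
The log2 ratio of the depleted-labelled over the wildtype-labelled array against the mean log2 signal of both, for the kept probe sets. Grey points are other probe sets, 7 more of which lie beyond the axis, coloured points are the 11 kept probe sets described here, and dashed lines mark 1.5-fold. The 3 bambi points, at 0.72, 1.07 and 1.27, lie above the upper line, while bmp4, smad7, id2, id3 and chrd.1 lie between the lines.

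The secreted regulators of BMP gave a gene with little difference, chordin, and another, sizzled, that was too dim to settle. Chordin, which binds BMPs and is made by the organizer and notochord, was read by 2 bright probe sets for chrd.1.S. The first read 768.7 and 754.3, a log2 ratio of -0.04, and the second read 1252.7 and 1462.2, a log2 ratio of 0.21. Their mean was 0.09, within 0.23 of 0. Of the 10 kept notochord probe sets, which include those for chrd.1.S, 9 were below 0 and 1 was at least 1.5-fold lower, with a median log2 ratio of -0.19. The one above 0 was the second chrd.1.S probe set.

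Sizzled (szl) is a secreted Frizzled-related protein of the ventral side, which inhibits the Tolloid proteases that cleave chordin, and is itself a BMP target. All 3 of its probe sets were under the signal filter. The szl.L probe set read 26 on the wildtype-labelled and 24 on the depleted-labelled array, and that for szl.S read 7.7 and 13.3, under the floor on both. The probe set shared by both homeologs read 20 and 68.8, a log2 ratio of 1.77 or 3.42-fold. Its size depends on where the floor is put, since its lower reading sits on it, and it was 0.63 with the floor at the 40th percentile. Without the signal filter 5 of the 22 probe sets were at least 1.5-fold higher, for bambi, bmp4.S and szl, and 1 was at least 1.5-fold lower, for smad7.L. The shares over all 15491 probe sets were then 2.72% higher and 4.53% lower.

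To place these genes in their pathway, 95 symbols of BMP ligands, receptors, Smads, regulators and targets were looked up, of which 58 had a probe set and 37 a kept probe set that names 1 gene. They gave 42 genes, with homeologs counted apart and id3 without a copy counted apart from id3.S. A gene's log2 ratio was taken as the mean over its kept probe sets. Of the 42, 7 were at least 1.5-fold higher on the depleted-labelled array and 2 at least 1.5-fold lower, beside 2% higher and 3.08% lower among all 4543 genes. The median was 0.09, beside -0.01 over all genes. Without the members of the group described above, 5 of 35 were higher and 2 lower, and the median was 0.03.

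Among genes with a kept probe set that names 1 gene, ligands, receptors and Smads held none past 1.5-fold. The ligand gene bmp7.1.L read 764.2 and 1097.4, a log2 ratio of 0.51, whereas bmp7.2.L read 86.9 and 85.5, a log2 ratio of -0.03. The dorsal ligand admp.S, which is held down by BMP signalling in the organizer, read -0.21 over 2 probe sets. The 5 receptor genes lay between -0.08 for acvr1.S and 0.20 for the type I receptor bmpr1a.L, with acvr2b.S at 0.10 on the log2 scale. The signal transducer smad1.S read 0.30, but its probe sets disagreed: one went from 285.4 to 431.7, a log2 ratio of 0.59, and the other from 139.1 to 140.3, a log2 ratio of 0.00. The common partner smad4.L read 0.27 over 2 probe sets. Readings of smad9.S and gdf7.S, both under the signal filter, were past 1.5-fold in opposite directions. That of smad9.S went from 30.9 on the wildtype-labelled to 64.8 on the depleted-labelled array. That of the ligand gene gdf7.S went from 49.9 to 25.1.

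Among the extracellular regulators, 0 of 6 genes with a kept probe set were past 1.5-fold. Under the signal filter, a bmp1.S probe set went from 60.7 to 39.3, a log2 ratio of -0.64, while another read -0.02. The antagonist gene nog.L (noggin) went from 231 to 194.9, a log2 ratio of -0.25, and the protease gene tll1.S of the Tolloid family had a log2 ratio of 0.24, with fstl1.L at 0.08. Among the intracellular regulators, tob2.L, named for a family of antiproliferative proteins that includes repressors of Smad signalling, had a log2 ratio of -0.64 over probe sets that read -0.93 and -0.35. The RNA-binding protein gene rbpms2.S read -0.33, with a second probe set under the signal filter at -0.06, and the phosphatase gene ctdspl.S read -0.11. Apart from bambi, all 5 genes of that role with a kept probe set that names 1 gene were below 0. Of these, ctdspl.S, zeb2.S at -0.10 and ppm1a.S at -0.03 lay within 0.23 of 0, so a common direction was not settled. Readings of the role that were not kept lay on both sides. The ski probe set shared by both homeologs read 1.12, rbpms2.L 0.27 and tob1.S -0.19.

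The targets held 6 of the 9 genes past 1.5-fold, out of 18 measured, and the intracellular regulators the other 3, out of 7. Among the targets 5 were at least 1.5-fold higher and 1 at least 1.5-fold lower, with a median log2 ratio of 0.27. The homeobox repressor ventx2.1, which specifies ventral mesoderm and belongs to the wider synexpression group, was higher in the readings named for both copies. That of ventx2.1.L went from 550.3 to 971.9, a log2 ratio of 0.81. That of ventx2.1.S went from 530.3 to 836.1, a log2 ratio of 0.65. The ventx2.1.S probe set is of the Affymetrix type that can cross-hybridise with other transcripts, so it may not read that copy alone. Another gene of the family, ventx3.2.S, went from 156.6 to 270.7, a log2 ratio of 0.78. Other Ventx genes did not share the size, with ventx2.2.L at 0.26 and ventx1.1.L at -0.04. A second ventx1.1.L probe set, under the signal filter, went from 56.3 to 79, a log2 ratio of 0.48.

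The zinc finger gene gata2.L, which acts in ventral mesoderm, blood and epidermis, went from 143.2 to 225.1, a log2 ratio of 0.64. The epidermal homeobox gene dlx3 was near the limit in both copies, with dlx3.L at 0.63, from 182.4 to 283.4, and dlx3.S at 0.52, from 780 to 1127.7. In the opposite direction, id4.S, another Id gene, went from 159.3 to 91.5, a log2 ratio of -0.81 or 1.75-fold lower. The homeobox target msx1.L, at -0.10, and msx2.L, at 0.29, were under 1.5-fold. A second msx2.L probe set, under the signal filter, went from 42.4 to 29.8, a log2 ratio of -0.52. Targets of the pathway thus lay on both sides: ventx2.1.L, ventx2.1.S, ventx3.2.S, gata2.L and dlx3.L were past 1.5-fold in the higher direction and id4.S in the lower.

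**Figure D3:**
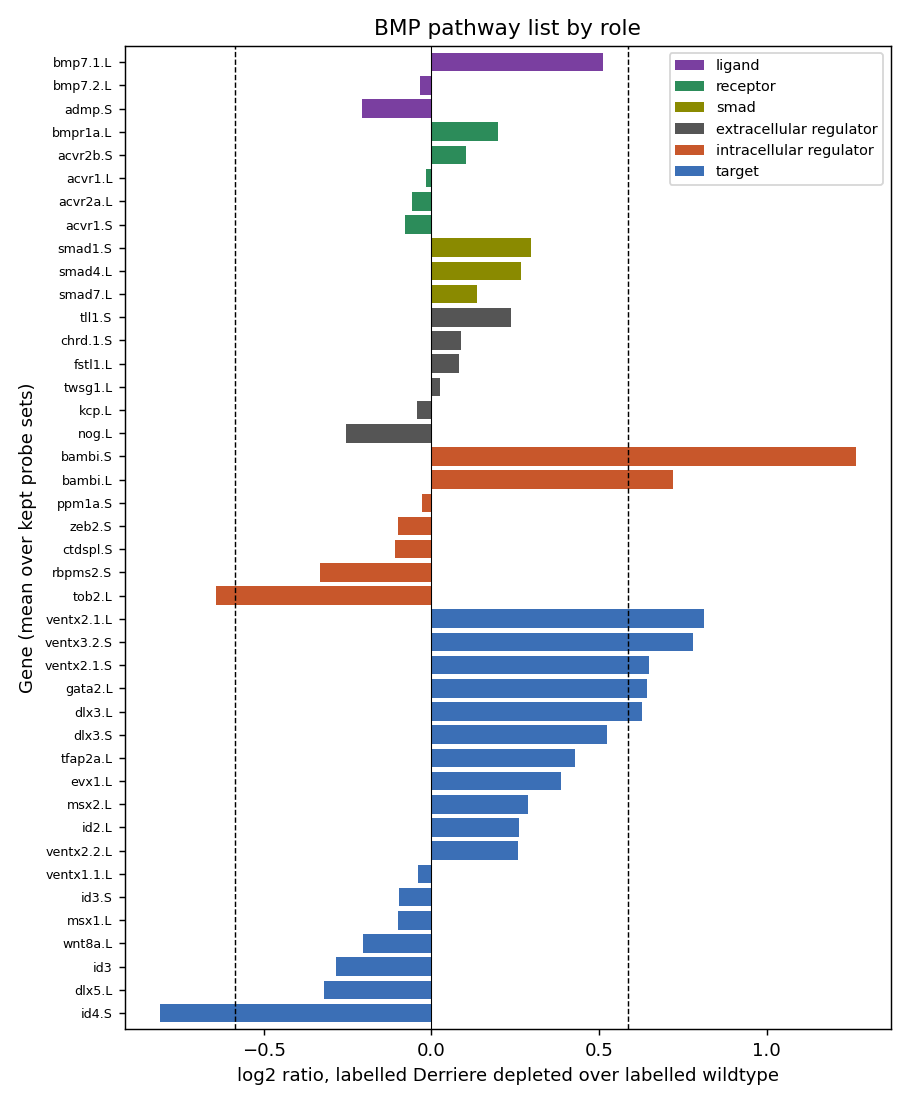
The log2 ratio, depleted-labelled over wildtype-labelled array, of the 42 measured genes of the BMP pathway list, coloured by role and sorted within each. Bars are means over a gene's kept probe sets and dashed lines mark 1.5-fold. Ligands, receptors, Smads and extracellular regulators lie between the lines, while bambi.S, bambi.L, tob2.L and 6 of the 18 targets pass them.

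Marker genes of other tissues differed between the arrays as well. Of the 10 kept epidermal probe sets 8 were above 0 and 3 at least 1.5-fold higher, with a median log2 ratio of 0.45, and the list holds dlx3 and tfap2a, which are also BMP targets. Its summed signal went from 14162.4 to 14779.2, with the lectin gene itln1.L as its brightest member at 8244.9 and 7025.5. Of the 6 kept probe sets for ventral and lateral mesoderm 4 were at least 1.5-fold higher, all of them Ventx or gata2 probe sets counted above, and the list's summed signal went from 1908.3 to 2881.2. The ventral markers hand1.L, at 8.2 and 1.5, and foxf1.L, at 9.4 and 16.8, were under the floor on both arrays. Under the signal filter, hand2.L went the other way from the Ventx genes past 1.5-fold, from 34.2 to 16.4, a log2 ratio of -0.80 with the lower reading raised to the floor. Muscle markers had a median of -0.67, with 4 of 7 kept probe sets at least 1.5-fold lower and a summed signal of 5605.1 and 3620. Endoderm markers had a median of 1.09 over 4 kept probe sets, 3 of them for sox17 genes, with a2m.S at 0.04. Of those not kept, sox17a.S read 0.29, gata6.L -0.02 and gata6.S -0.28, while both gata4 copies were under the floor on both arrays. Neural plate markers had a median of -0.12 over 8 kept probe sets, with 3 above 0 and 5 below. Of these 1 was at least 1.5-fold lower, for sox2.L at -0.60. Readings of pax6.L under the signal filter ranged from -0.83 to 0.17. Blood markers had a median of -0.13 over 2 kept probe sets. The part of tissue composition in the bambi, bmp4 and Ventx values was not tested.

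**Figure D4:**
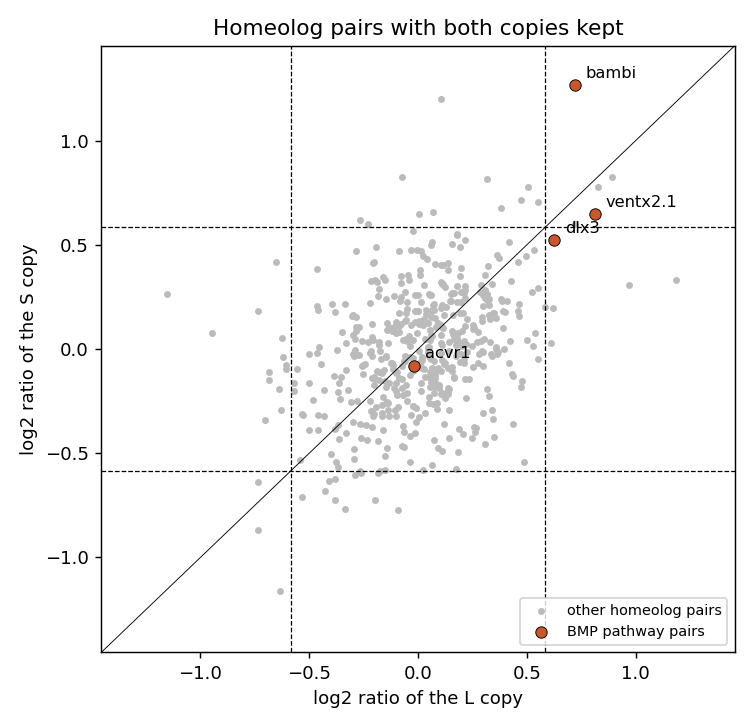
The log2 ratio of the S copy against that of the L copy for the 524 genes with both copies kept, each as the mean over its kept probe sets. Grey points are other genes, orange points the 4 pairs of the BMP pathway list, dashed lines mark 1.5-fold and the solid line equal ratios. The pairs bambi and ventx2.1 lie in the upper right corner, dlx3 just under its lower edge and acvr1 near 0.

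Homeolog by homeolog, few pairs could be compared. Of the 524 genes with both copies kept, 5 had both copies at least 1.5-fold higher, which is 0.954%, and 3 had both at least 1.5-fold lower, which is 0.573%. Bambi and ventx2.1 were 2 of the 5, with ventx2.1.S read by a probe set of the type that can cross-hybridise. The other pairs of the pathway list were dlx3, with copies at 0.63 and 0.52 on the log2 scale, and acvr1, a type I receptor gene, at -0.02 for .L and -0.08 for .S. In each of these 4 pairs both copies lay on the same side of 0, as in 61.6% of all pairs, and probe sets of near-identical copies can share signal. Across the 524 genes the ratios of the copies had a Pearson r of 0.38, given as a description, since all points share the same arrays. Of 64 genes with a kept probe set for each copy and another shared by both, bambi was the only one with all readings at least 1.5-fold higher. For bmp2, bmp4, smad6, smad7, id2, id3, szl and chrd.1 no pair of kept single-copy readings was available, so their homeologs were not compared.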

How the data were processed

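Total RNA (6 µg) was labelled with biotin and hybridised, 1 array per group, and the values deposited by the authors are linear intensities, 1 per probe set. MAS5 made them, per the submitters' processing notes, with a version and scaling target not given in the sources used here. Its correction by mismatch probes makes dim readings noisy.

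From the 15611 probe sets, 120 controls were left out. A floor was set at 19.7, the 25th percentile over the arrays together, log2 ratios were taken, probe sets with a mean signal at or above the median of 75 were kept, and ratios were centred by subtracting 0.0089. Genes were named from the platform annotation, which can be old: 9304 probe sets had 1 symbol, 195 several and 5992 none. A probe set naming both homeologs was used only as a reading of the pair. No test was run, because each group had 1 array, so calls rest on a fixed size, 1.5-fold.

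The genes and lists were chosen with earlier results of these data known. All probe sets of the members are reported. Other pathway genes were ranked by kept probe sets that name 1 gene. Those past 1.5-fold and the 3 with the largest ratios in each role are named. The genes msx1.L, msx2.L, ventx1.1.L, ventx2.2.L, dlx3.S, acvr1.L, zeb2.S and ppm1a.S were added after their values were seen. Some readings under the signal filter, such as those of ski, rbpms2.L, tob1.S, smad9.S, gdf7.S and bmp1.S, were also given, outside that rule. Alternatives changed the floor, centring, normalization, filter and fold. No sequences were used here. The procedure was run on simulated arrays with planted changes of 1.5 on the log2 scale. These are larger than the ratios of the kept BMP genes, so recovery of changes of their size was not tested. The tools were pandas 2.3.3, numpy 2.4.6 and statsmodels 0.14.6 under Python 3.11.15.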

Additional observations from a re-analysis of the deposited data

How the results depend on the processing

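The ratios of the 22 probe sets were recomputed under 8 other settings, all planned, and none of them given above as past 1.5-fold changed sign. Bambi.L ranged from 0.62 to 0.74 on the log2 scale, bambi.S from 1.03 to 1.30, the bambi probe set shared by both copies from 1.03 to 1.08 and bmp4.S from 0.66 to 0.95, and all stayed past 1.5-fold. The shared szl probe set ranged from 0.63 to 1.83. The szl.S probe set, under the floor on both arrays, went from -0.01 to 0.78 when no floor was used. With a filter at the 75th percentile, 1 member probe set was at least 1.5-fold higher, because bambi.L and bambi.S were dropped, the synexpression median was -0.10, and over all probe sets 57 were higher and 84 lower. With no filter, 5 members were higher and 1 lower, and over all probe sets 422 were higher and 702 lower. At 2-fold, 2 member probe sets were higher, against 3 at 1.5-fold, and 27 of all probe sets were higher and 21 lower. With an offset in place of the floor, 164 were at least 1.5-fold lower, against 262. The median of the BMP pathway list ranged little, and the other counts and medians moved by at most 1.5 times or by less than the SD between probe sets of a gene. For the other pathway genes named for the size of their ratio, settings were added after the data were seen. Under them dlx3.L reached as low as 0.576 and gata2.L 0.579, just under 1.5-fold. With the stricter filter tob2.L read -0.36, and smad1.S read 0.583, just under 1.5-fold, against 0.296. The genes ventx2.1.L, ventx2.1.S, ventx3.2.S and id4.S stayed past 1.5-fold wherever they were kept. No paired analysis was possible because there was only 1 array for each condition, and leaving out a replicate was impossible for the same reason.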
